A study of Mus musculus with 2 samples.

Results

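Accessible intergenic sites far from genes were mapped in the mouse thymus as DNase-seq peaks that lay outside every annotated gene body and more than 50 kb from every annotated transcription start site. The libraries came from thymus tissue of 2 female B6CASTF1/J mice aged 36 days, hybrids that carry a C57BL/6J and a CAST/EiJ genome. Mouse 1 and mouse 2 are the animals labelled biological replicates 1 and 2, with 1 library each and no treatment. Both belong to 1 group, so no condition was compared. Whole tissue was used, so a site open in few cells and a site weakly open in many cannot be told apart. On the 19 autosomes, 1117 of 57973 peaks of mouse 1 (1.93%) and 1405 of 71126 peaks of mouse 2 (1.98%) were far intergenic, a mean of 1.95% ± 0.034 (SD, n = 2). Far intergenic peaks of the mice that overlapped by at least 1 bp were joined into 841 sites, which are the main set below.

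DNase I cuts DNA where nucleosomes are displaced, and such places mark promoters, enhancers and insulators. Enhancers can act on genes over long distances, and developing T cells (thymocytes), the main cells of the thymus, use distant enhancers to control the genes that set their fate. CTCF, a zinc finger protein, binds insulators and the anchors of chromatin loops. RUNX and ETS factors and the E proteins bind many enhancers of the T lineage. A footprint is a short stretch inside an accessible site that is cut less than its surroundings, as happens under a bound protein.

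The sequences of 10 sites are shown because they hold the strongest signals of the set or the motifs that the results below turn on. They are the plus strand of the C57BL/6J reference (GRCm38, mm10), read 5′ to 3′, and not the alleles of these hybrid animals. A site is shown whole, or as its central 240 bases where it was longer. Capitals mark matches on either strand to CTCF, RUNX (TGTGGT) and ETS (GGAAGT). The 3 strongest sites are given with the genes on either side, and the site between Mn1 and Gm26897 held no match to these motifs.
chr5:105648721-105648960 between Lrrc8c and Lrrc8d: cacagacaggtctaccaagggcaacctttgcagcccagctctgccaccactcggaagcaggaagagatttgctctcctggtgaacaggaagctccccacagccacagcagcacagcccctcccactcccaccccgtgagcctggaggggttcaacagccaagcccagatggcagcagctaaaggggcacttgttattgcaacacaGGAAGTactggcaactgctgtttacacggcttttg
chr5:111509161-111509400 between Mn1 and Gm26897: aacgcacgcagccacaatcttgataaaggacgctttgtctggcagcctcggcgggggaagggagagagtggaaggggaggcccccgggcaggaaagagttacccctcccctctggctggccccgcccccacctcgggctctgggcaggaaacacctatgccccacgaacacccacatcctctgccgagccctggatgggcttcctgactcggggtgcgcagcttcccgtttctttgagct
chr13:46340041-46340240 between Stmnd1 and Rbm24: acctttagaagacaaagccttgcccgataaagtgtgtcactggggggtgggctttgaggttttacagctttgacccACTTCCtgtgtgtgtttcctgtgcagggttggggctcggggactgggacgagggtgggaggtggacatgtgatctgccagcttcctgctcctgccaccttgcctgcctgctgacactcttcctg
The 3 strongest sites with a CTCF match follow, leaving out 1 stronger site whose sequence is not shown, and the site near Runx3 lay 53.7 kb from its start site.
chr12:16509441-16509620 between Trib2 and Lpin1: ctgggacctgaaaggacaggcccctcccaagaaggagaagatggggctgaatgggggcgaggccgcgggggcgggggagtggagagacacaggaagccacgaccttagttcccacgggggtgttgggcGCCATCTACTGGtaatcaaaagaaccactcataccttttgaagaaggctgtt
chr4:135066821-135067020 between Syf2 and Runx3: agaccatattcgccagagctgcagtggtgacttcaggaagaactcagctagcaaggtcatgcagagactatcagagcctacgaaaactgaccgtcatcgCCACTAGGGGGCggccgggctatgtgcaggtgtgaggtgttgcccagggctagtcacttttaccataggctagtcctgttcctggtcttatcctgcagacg
chr2:101472861-101473040 between Gm10800 and B230118H07Rik: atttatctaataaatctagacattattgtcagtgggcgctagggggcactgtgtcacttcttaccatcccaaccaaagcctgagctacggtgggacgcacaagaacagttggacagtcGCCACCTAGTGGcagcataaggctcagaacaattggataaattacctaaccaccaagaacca
The 4 strongest sites with both a RUNX and an ETS match follow, again leaving out 1 site among the strongest. Their matches lay at different spacings and in different orders.
chr17:29769161-29769400 between Ccdc167 and Mdga1: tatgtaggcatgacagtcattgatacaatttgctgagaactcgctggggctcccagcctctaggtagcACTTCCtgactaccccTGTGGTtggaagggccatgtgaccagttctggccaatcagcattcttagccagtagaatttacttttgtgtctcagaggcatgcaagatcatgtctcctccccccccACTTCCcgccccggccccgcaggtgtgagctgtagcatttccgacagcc
chr17:52213021-52213260 between Satb1 and Kcnh8: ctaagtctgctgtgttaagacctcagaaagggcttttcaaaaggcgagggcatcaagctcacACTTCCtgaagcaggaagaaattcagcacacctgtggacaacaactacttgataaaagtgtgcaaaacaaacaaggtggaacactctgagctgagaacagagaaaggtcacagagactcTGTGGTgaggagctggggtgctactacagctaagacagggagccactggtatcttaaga
chr12:107362191-107362430 between Vrk1 and 3110018I06Rik: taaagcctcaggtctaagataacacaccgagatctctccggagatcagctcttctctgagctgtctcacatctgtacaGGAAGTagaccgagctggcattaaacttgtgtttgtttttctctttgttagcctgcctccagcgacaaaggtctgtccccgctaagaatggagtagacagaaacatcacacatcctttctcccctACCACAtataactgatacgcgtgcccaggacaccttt
chr1:184101528-184101767 between Dusp10 and Hlx: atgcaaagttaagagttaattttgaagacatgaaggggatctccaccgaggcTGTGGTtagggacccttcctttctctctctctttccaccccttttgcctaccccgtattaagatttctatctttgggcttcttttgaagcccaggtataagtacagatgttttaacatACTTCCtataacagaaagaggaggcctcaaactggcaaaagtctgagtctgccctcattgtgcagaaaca

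The tissue label was checked at promoters. All 10 T-cell marker genes (among them Cd3e, Cd4, Cd8a, Rag1 and Tcf7) had a peak within 1 kb of a start site in both mice. The same held for 2 of 5 markers of myeloid cells, 2 of 6 of thymic epithelial cells and 4 of 6 of endothelial or mesenchymal cells. Among markers of other cells, Pax5, Ebf1, Itgam, Cebpa, Prss16, Epcam, Pecam1, Kdr, Col1a1 and Pdgfra had a promoter peak in both mice. Cd79a, Ms4a1, Adgre1, C1qa, Csf1r, Foxn1, Psmb11, Krt5, Krt8, Cdh5 and Col3a1 had none in either mouse. The share of all genes with a promoter peak is not given here, so these counts have no background beside them. Which cells of the tissue contribute the far intergenic sites was not tested.

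Far intergenic sequence was sparse in accessible sites. It made up 371 Mb, or 15.5%, of the autosomes outside assembly gaps, and held 3.01 peaks per Mb in mouse 1 and 3.79 in mouse 2, a mean of 3.40 ± 0.55 (SD, n = 2). Near intergenic sequence, outside genes but within 50 kb of a start site and more than 1 kb from it, held 14.7 and 18.9 per Mb. All autosomes together held 24.2 and 29.7. The lower of the near intergenic values was above the higher of the far intergenic values, so the difference exceeded the spread between the mice. With 2 animals in 1 group a paired exact permutation test cannot give a two-sided p below 0.5, so comparisons here are values in each mouse beside that spread.

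Sites became rarer with distance. Between 50 and 100 kb from the nearest start site there were 676 sites, or 3.30 per Mb, and this distance held 80.4% of the sites on 55.2% of the sequence. Between 100 and 200 kb there were 140 sites, or 1.13 per Mb. Between 200 and 500 kb there were 25 sites, or 0.597 per Mb. The fall was present in each mouse: mouse 1 had 4.35, 1.54 and 0.836 peaks per Mb over these distances, and mouse 2 had 5.48, 1.90 and 1.12. The median site lay 68.9 kb from a start site of any gene and 112 kb from a protein-coding one, and the farthest lay 338 kb from any. The 50 kb limit applied to start sites only, so a site could lie close to a gene body. For example, the site at chr2:33559861-33560040 lay 0.924 kb from the body of Lmx1b. The nearest start site belonged to a protein-coding gene at 275 sites (32.7%) and to a lincRNA gene at 222. Just inside the threshold were sites at chr5:111894021-111894300, 50.034 kb from a start site with signals of 2.10 and 4.30 in mouse 1 and mouse 2, and at chr6:35380838-35380997 (50.052 kb, signals 0.459 and 0.423). Just outside were shared peaks at chr2:9823643-9823784 (49.958 kb, signals 0.574 and 0.539) and chr17:29766738-29767238 (49.916 kb, signals 0.759 and 0.801).

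The far intergenic peaks were weaker than other peaks. The signal is the value per peak that the authors deposited. Its reading as a depth-normalised height was inferred from its steps and was not stated in the sources used here. Its median over all far intergenic peaks was 0.798 in mouse 1 and 0.806 in mouse 2, against 1.02 and 1.19 for near intergenic peaks, 1.01 and 1.12 within gene bodies, and 1.75 and 2.72 at promoters. The higher of the far intergenic medians was below the lower median of each other class. The signal also fell with distance, from a median of 0.842 and 0.856 at 50 to 100 kb to 0.587 and 0.559 at 200 to 500 kb. All signals were whole multiples of a step within 0.1 steps, and a far intergenic peak of median height was worth 125 steps in mouse 1 and 160 in mouse 2. The peaks were narrow, with a median width of 200 bp in mouse 1 and 180 bp in mouse 2, the same as near intergenic peaks.

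**Figure D1:**
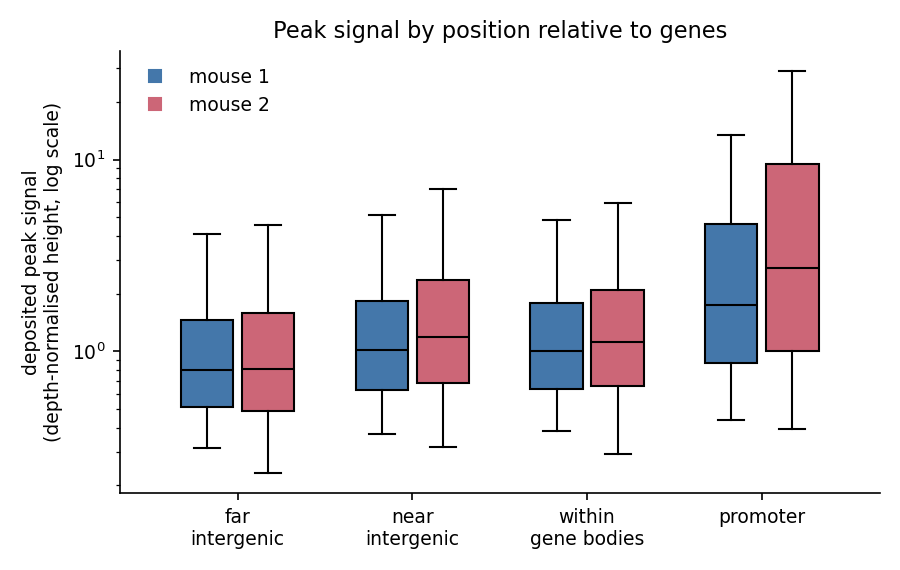
Deposited peak signal (read as a depth-normalised height, log scale) of all autosomal peaks of mouse 1 and mouse 2, by position relative to genes. Boxes span the quartiles with the median as a line and whiskers the 5th to 95th percentiles. The far intergenic medians, 0.798 and 0.806, are the lowest of the 4 classes in each mouse.

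The signal by class plot shows that the classes overlap widely. The far intergenic set also had strong members. The highest mean signal was at the first sequence above, chr5:105648721-105648960 between Lrrc8c and Lrrc8d, subunit genes of a volume-regulated anion channel. It had a signal of 18.7 in mouse 1 and 27.8 in mouse 2, above the median promoter peak of either mouse. Another pair of the 10 strongest sites lay in the same interval, at chr5:105649461-105649700 (11.2 and 14.0) and chr5:105642661-105642920 (11.5 and 8.53). The second strongest site, chr5:111509161-111509400 beside Mn1, a transcriptional coregulator gene, had signals of 14.0 and 31.2. The site at chr13:46340041-46340240, between Stmnd1 and the RNA-binding protein gene Rbm24, had 18.3 and 19.2. The mice were close at this last site, whereas mouse 2 was higher by a log2 ratio of 1.16 at the site beside Mn1.

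The others of the 10 strongest sites lay near genes of several kinds. A site at chr9:116384321-116384520, 209 kb from the start of the TGF-beta receptor gene Tgfbr2, had signals of 8.86 and 20.5. A site between Ccdc167 and Mdga1, shown above for its RUNX and ETS matches, had 13.9 and 15.0. A site 52.0 kb from the start of Runx3, the factor of CD8 T cells, had 7.96 and 16.9 at chr4:135206241-135206580. It lay 7.39 kb from the body of the gene Clic4 and 28.25 kb from that of Runx3. Next came a site at chr7:58399121-58399340 (8.03 and 16.9), whose nearest protein-coding start site was that of the phospholipid transporter gene Atp10a, 257 kb away. The site at chr8:126666501-126667060, beside the corepressor gene Irf2bp2, had 7.18 and 16.8. Of the 10, all but 1 had the higher signal in mouse 2, the exception being the site at chr5:105642661-105642920. The 10 were ranked by the mean signal of both mice. The upper quartile of all autosomal peaks was also higher in mouse 2, 3.73 against 2.70, so this count is not independent of the ranking.

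Sites of the main set correlated between the mice. Their median signal was 0.970 in mouse 1 and 1.28 in mouse 2, and mouse 2 was higher at 547 of 841 sites (65.0%). Mouse 2 was higher more often over all shared autosomal pairs, at 96.1% of those with a CTCF match and 80.5% of those without. The median log2 ratio of mouse 2 to mouse 1 was 0.28 at the sites (SD 0.77 across sites), against 0.75 over all shared autosomal pairs. Of the sites, 79.2% lay within 2-fold of their median ratio. Over the 841 sites Pearson's r of the log2 signals was 0.785 and Spearman's rho was 0.739. These correlations describe sites that share 2 libraries and are not independent replicates. The ratio rose with GC content, as it did in other peaks: over the 5 equal GC groups of all shared autosomal peaks, its median at far intergenic pairs was -0.03, 0.18, 0.50, 0.71 and 1.16, with 316, 262, 171, 82 and 11 pairs. Over all autosomal pairs it was 0.09, 0.28, 0.56, 0.93 and 1.43. Differences at single sites were not tested, since each mouse is 1 library.

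Sharing was lower for far intergenic peaks than for all peaks, and not so at equal signal. Of the mouse 1 members, 848 (75.9%) overlapped a mouse 2 peak, where 80.9% of all autosomal peaks did. Of the mouse 2 members, 855 (60.9%) overlapped a mouse 1 peak, where 66.1% of all did. Far intergenic peaks were mostly weak: 36.5% of them in mouse 1 and 39.9% in mouse 2 fell in the weakest of 5 equal signal groups of all autosomal peaks. Within the signal groups of mouse 1, from weak to strong, 56.1%, 76.5%, 88.5%, 97.2% and 98.8% of far intergenic peaks were shared, against 53.4%, 71.6%, 85.3%, 94.9% and 99.2% of all peaks. Within those of mouse 2 the shares were 31.0%, 60.2%, 88.8%, 96.5% and 100%, against 22.0%, 47.1%, 71.6%, 91.6% and 98.1%. The share was thus above that of all peaks in every signal group except the strongest of mouse 1. Against near intergenic peaks it was higher in every group of mouse 2, but in mouse 1 the weakest and strongest near intergenic groups were shared more, at 56.9% and 99.2%.

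**Figure D2:**
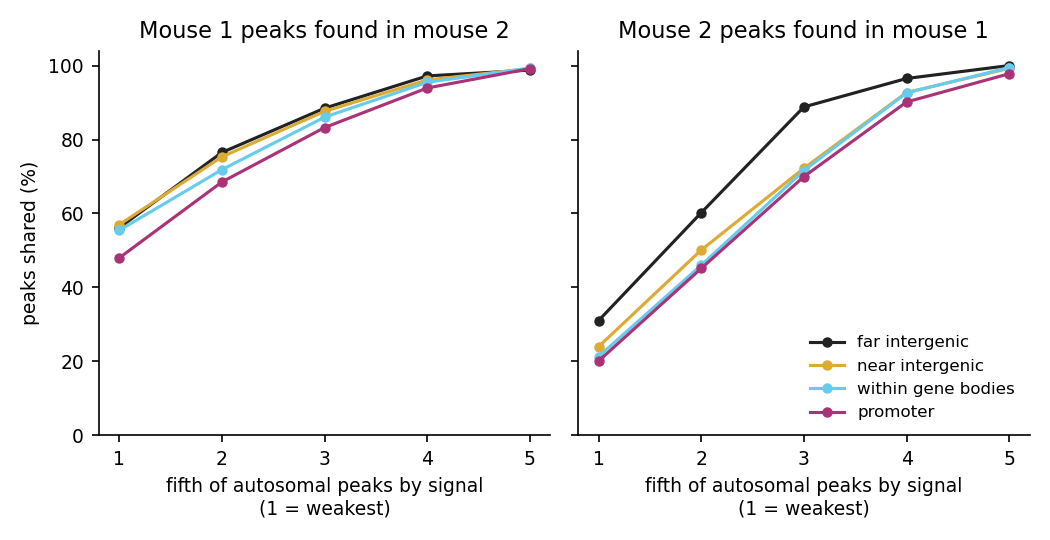
Share of peaks (%) that overlap a peak of the other mouse, by 5 equal signal groups of all autosomal peaks (1 the weakest), for peaks of mouse 1 (left) and mouse 2 (right) in 4 position classes. In mouse 1 the far and near intergenic points nearly coincide, and in mouse 2 the far intergenic points lie above the other classes in each signal group, for example 88.8% in the middle group against 71.6% of all peaks.

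Members without a partner were weak. Mouse 1 had 269 such members and mouse 2 had 550, and their median signals were 0.523 and 0.484. The strongest of them had signals of 4.03 and 3.10. The longer list of the other mouse held an overlapping peak for 122 of the mouse 1 members and 228 of the mouse 2 members. Cutting with an FDR below 0.05 in the other mouse, as the authors deposited it, was touched by 151 (56.1%) and 286 (52.0%). Over all unshared autosomal peaks these shares were 67.8% and 53.0% for cutting and 41.2% and 40.3% for the longer list, against 45.4% and 41.5% of the far intergenic ones for that list. An unshared member was therefore not shown to be closed in the other mouse.

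The far intergenic peaks held fewer CpGs than promoter peaks, and repeats covered less of them than of far intergenic sequence as a whole. Within 200 bp around the peak midpoint the median GC content was 50.5% in mouse 1 and 52.0% in mouse 2, and the mean number of CpGs was 3.33 and 3.72. Promoter peaks had 12.5 and 13.8 CpGs in the same window, and peaks within gene bodies 3.72 and 4.21. Repeats, marked in the reference by lower case, covered 12.6% and 16.2% of these windows on average and 39.4% of all far intergenic sequence. Over all autosomal peaks they covered less, 10.7% and 11.5%. How reads over repeats were mapped was not given in the sources used here. Repeats covered over 50% of the window at 5.55% and 10.3% of far intergenic peaks, against 4.16% and 5.47% of all autosomal peaks, and at 42 of the 841 sites (4.99%).

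CTCF matches were more common in the far intergenic peaks than in autosomal peaks as a whole, which include many promoter peaks with few matches. The CTCF consensus was found within the 200 bp window of 84 members in mouse 1 (7.52%) and 139 in mouse 2 (9.89%), a mean of 8.71% ± 1.68 (SD, n = 2). Over all autosomal peaks the shares were 5.42% and 6.45%, and at near intergenic peaks 9.77% and 10.8%. Within gene bodies they were 7.56% and 8.36%, and at promoter peaks 1.84% and 2.38%. Windows placed 1 kb to either side of the far intergenic peaks held it in 0.045% and 0.071%. The share was thus above that of promoter peaks and flanking windows in each mouse. It was below that of near intergenic peaks by 2.25 percentage points in mouse 1 and 0.945 in mouse 2. Against peaks within gene bodies it was slightly lower in mouse 1 and higher in mouse 2.

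Matches to CTCF lay in footprints more often than other motifs. In mouse 1, 63 of 82 CTCF matches within far intergenic peaks (76.8%) were covered over at least 50% of their length by a footprint, and in mouse 2 128 of 134 (95.5%). Footprints covered 16.5% and 20.2% of far intergenic peak bases. Matches to SP/KLF (GGGCGG) followed among motifs with over 10 matches in each mouse, with 60.5% and 59.9%. Then came TCF1/LEF1 (CTTTGAA), the factors needed for T-cell specification, with 37.5% and 31.9%. RUNX matches lay in footprints in 22.3% and 27.4% of cases and ETS matches in 17.7% and 21.4%, nearer to the share of bases. The footprints at CTCF matches were long, with medians of 25 and 30 bp, against 10 and 11 bp for all far intergenic footprints.

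At the 79 sites of the main set with a CTCF match, 61 matches were footprinted in mouse 1, 77 in mouse 2 and 60 in both. The 3 CTCF sites printed above had signals of 4.80 and 7.53 near Lpin1, 2.85 and 9.08 near Runx3, and 2.95 and 6.70 near B230118H07Rik. Mouse 2 had the higher signal at 72 of the 79 (91.1%), against 475 of the 762 other sites (62.3%). The median log2 ratio was 1.09 (SD 0.72) with a match and 0.20 (SD 0.74) without. The median GC content of these groups was close, 50.5% and 51.5%. The same pattern was present in near intergenic pairs, with median log2 ratios of 1.33 with a match and 0.43 without, so it is not particular to far intergenic sites. The cause of the higher CTCF signal in mouse 2 was not tested. Sharing differed in the same way: in mouse 1, 94.0% of members with a CTCF match were shared and 74.4% of the others. In mouse 2 the shares were 56.8% and 61.3%.

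**Figure D3:**
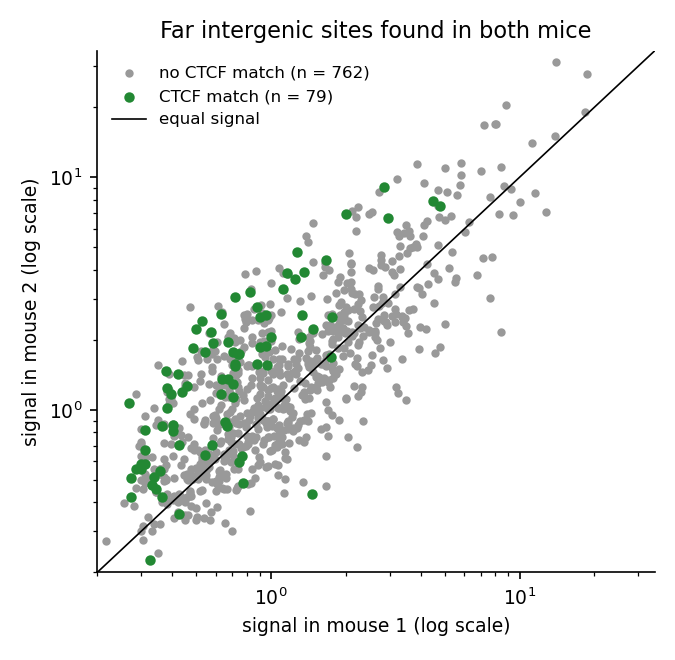
Deposited signal of the 841 far intergenic sites in mouse 1 (horizontal) and mouse 2 (vertical), both on log scales, each point 1 site, with the 79 CTCF-matching sites in green and a line of equal signal. Of the green points, 72 lie above the line, against 475 of the 762 grey points.

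Motifs of RUNX, ETS, E-protein and TCF1/LEF1 factors were also more common in the peaks than beside them, and those of GATA and Ikaros factors were not. The RUNX motif was present in 25.4% of far intergenic windows in mouse 1 and 22.1% in mouse 2, against 15.6% and 14.7% of windows 1 kb away. The ETS motif was present in 28.5% and 21.5%, against 11.6% and 12.2%. Among E-boxes, the motifs of E proteins, CAGCTG was present in 21.3% and 20.8% of far intergenic windows, against 9.80% and 9.25%. The E-box CAGGTG was present in 30.4% and 29.6%, against 13.0% and 13.2%. TCF1/LEF1 matches were present in 7.88% and 5.55%, against 4.74% and 4.91%. In mouse 2 this gap was small, below the 2.33 percentage points between the far intergenic shares of the mice. AGATAA, the motif of GATA factors, was present in 9.04% and 7.97%, below the 10.9% and 10.8% beside the peaks. TGGGAA, the Ikaros family motif, was present in 16.2% and 17.1%, below 17.7% and 18.3%. With its letters reversed, the GATA motif was present in 6.00% and 5.69% of the far intergenic windows. The reversed Ikaros motif was present in 9.31% and 9.25%. Both motifs were thus more common than their reversed letters, so their place depends on the comparison. AGGTCA, the ROR motif, was present in 12.9% and 11.7%, against 11.6% and 12.1%. Over all autosomal peaks the shares were 18.7% and 16.8% for RUNX, 22.8% and 19.7% for ETS, 17.8% and 18.2% for CAGCTG and 25.4% and 25.1% for the E-box CAGGTG. They were 4.65% and 3.48% for TCF1/LEF1 and 5.87% and 5.02% for the GATA motif. Near intergenic peaks had similar shares of these motifs, for example 23.9% and 21.1% for RUNX. The far intergenic share of ETS was 4.55 percentage points higher than the near intergenic share in mouse 1 and 1.65 in mouse 2, differences smaller than the 6.97 points between the mice.

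Promoter peaks differed from the far intergenic peaks. RUNX matches were present in 11.5% and 10.3% of promoter windows. The SP/KLF motif, typical of CpG-rich promoters, was present in 42.3% and 46.2% of promoter windows and in 9.04% and 10.5% of far intergenic ones. Of the 841 sites, 208 (24.7%) had a RUNX match, 223 (26.5%) an ETS match and 48 both, and 81 (9.63%) had none of the 17 motifs searched. Among the sites with a CTCF match, 12.7% had a RUNX match and 10.1% an ETS match, against 26.0% and 28.2% of the other sites. CTCF sites were also more isolated: 22.8% had another site within 10 kb, against 49.3% of the others. The short motifs occur often by composition, so a match is a description and not a binding site.

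**Figure D4:**
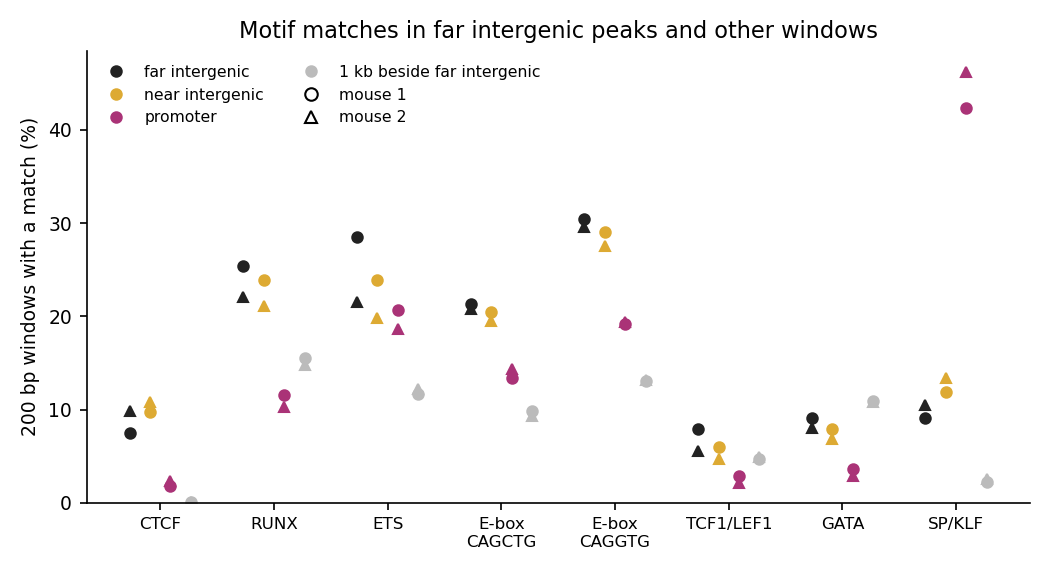
Share of 200 bp windows (%) with a match to each of 8 motifs on either strand, in far intergenic, near intergenic and promoter peaks and in windows 1 kb beside far intergenic peaks, for mouse 1 (circles) and mouse 2 (triangles). CTCF, RUNX, ETS and the E-boxes lie above the flanking windows in both mice, and SP/KLF is highest at promoters.

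Footprints were about as common as in all autosomal peaks, and slightly less common than in near intergenic peaks and peaks within gene bodies. At least 1 footprint was present in 987 members of mouse 1 (88.4%) and 1261 of mouse 2 (89.8%). Over all autosomal peaks the shares were 87.2% and 89.8%. They were 91.1% and 92.0% at near intergenic peaks, 90.6% and 90.4% within gene bodies and 82.9% and 88.1% at promoters. There were 2.69 and 2.48 footprints per far intergenic peak, against 2.90 and 2.75 at near intergenic peaks and 2.82 and 2.63 within gene bodies. Promoter peaks, which were wider, had 3.79 and 3.55. Of the 841 sites, 787 (93.6%) had a footprint in both mice and 11 in neither.

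Many of the sites came in clusters. A neighbouring site within 10 kb was present at 394 of 841 (46.8%), in 152 clusters, 10 of which held at least 5 sites. The largest held 9 sites in 13.7 kb beside Irf2bp2 and 9 sites in 11.2 kb beside the homeobox gene Cux1. Sites of a cluster are neighbours on the same DNA and are not independent. The share with a neighbour was not counted for other peak classes.

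The sites fell in a minority of the stretches of far intergenic sequence. Of 3523 unbroken stretches of far intergenic sequence, 426 (12.1%) held at least 1 site, and the 10 richest held 92 sites (10.9%). Stretches differed in length, the richest were picked by their count, and no expected share was computed. The stretch between Irf2bp2 and Tomm20 on chromosome 8 held 12 sites in 64.3 kb, with 13 peaks in mouse 1 and 34 in mouse 2 and signals of up to 9.44 and 16.8. The stretch between the corepressor gene Tle3 and the ribosomal protein gene Rplp1 on chromosome 9 also held 12, in 130 kb, with 13 and 14 peaks. The stretch between the cadherin genes Cdh26 and Cdh4 on chromosome 2 held 11, of which 3 had a CTCF match. Between Wwox and Maf, a bZIP factor gene of T helper cells, were 10 sites in 183 kb, with signals of up to 7.02 and 10.7. The mice had similar numbers of peaks in these stretches, except between Irf2bp2 and Tomm20.

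The other 6 of the richest stretches held 7 to 9 sites each. Those between Cux1 and Myl10 and between the polarity gene Pard3 and Nrp1, a semaphorin and VEGF receptor gene, held 9. The stretch between Prickle1 and Adamts20 held 8. Those between Pced1b and Rpap3, between Slc9a9 and Chst2 and between Insc and the SOX factor gene Sox6 held 7. Sites between Pard3 and Nrp1 had signals of at most 2.29 in mouse 1 and 2.25 in mouse 2. Their medians were 1.45 and 0.831, against 0.970 and 1.28 over all sites. Those beside Cux1 reached 4.70 and 9.43.

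T-lineage transcription factor genes had more sites in the far intergenic sequence around them than protein-coding genes as a whole. Each base of that sequence was assigned to the nearest protein-coding start site, which does not show that a site acts on that gene. Of 37 T-lineage transcription factor genes, 15 had any such sequence, and 14 of these had at least 1 site. Over all protein-coding genes 411 of 2438 with such sequence (16.9%) had a site. The list held 34 sites in 3.18 Mb, or 10.7 per Mb, and all far intergenic sequence held 2.27 per Mb, a ratio of 4.72. Counting all members, the list had 47 peaks in each mouse, or 14.8 per Mb, against 3.01 and 3.79 over all far intergenic sequence. Their sites had median signals of 1.73 and 1.96, against 0.970 and 1.28 for all sites. Of the 34 sites of the list, 7 were nearest to Gata3, 5 to Runx1, 5 to Tox and 4 to Runx3. The gene lists were chosen with earlier results of these data known, so their densities are descriptions and not an independent test.

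The T-cell receptor, co-receptor and signalling list had little far intergenic sequence and many sites in it. Of its 35 genes 5 had such sequence, 0.420 Mb in all, and 4 of these had a site. The 4 were Ptprc, Cxcr4, S1pr1 and Prkcq, and none of them encodes a T-cell receptor chain or co-receptor. The density of this list thus describes the sequence around these signalling and migration genes. It held 15 sites, or 35.7 per Mb, with 18 peaks in mouse 1 and 22 in mouse 2. The list of B-cell, myeloid, epithelial and endothelial genes had 2 sites in 0.705 Mb, or 2.84 per Mb, 1 nearest to Ebf1 and 1 to Cdh5. Neuronal adhesion and synapse genes, which are often flanked by long intergenic sequence, had 3 sites in 31.9 Mb, or 0.094 per Mb, with 9 peaks in mouse 1 and 12 in mouse 2. Each of these 3 was nearest to a different gene, Cdh20, Cdh12 and Csmd3. The 16 autosomal housekeeping genes had no far intergenic sequence.

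**Figure D5:**
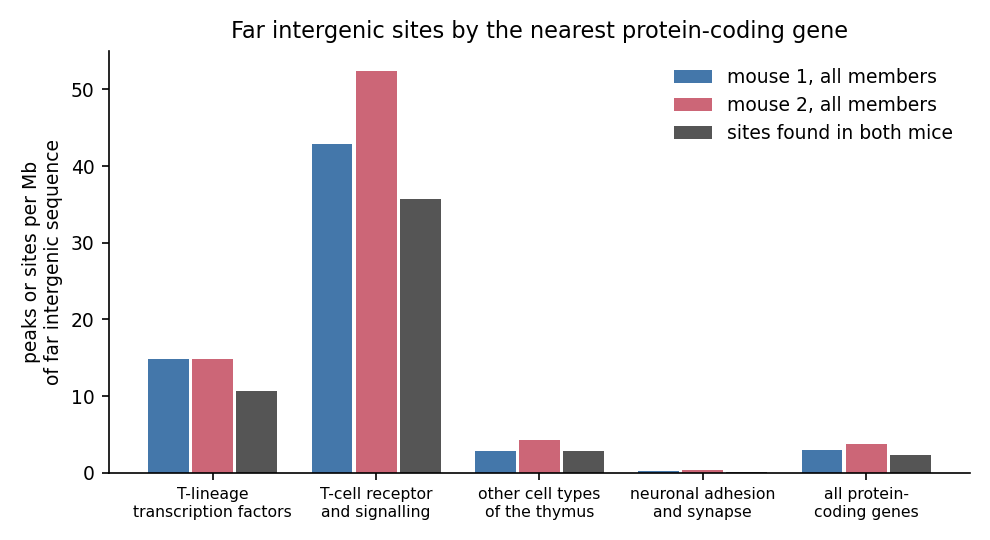
Far intergenic peaks of mouse 1 and mouse 2 and sites found in both, per Mb of far intergenic sequence, for sequence nearest to 4 lists of genes and to all protein-coding genes. The transcription factor list, with 10.7 sites per Mb, and the receptor and signalling list, with 35.7, stand above the 2.27 of all genes. The neuronal list, with 0.094, stands below. The lists were chosen with earlier results of these data known.

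The transcription factor list and the receptor and signalling list were also denser at matched distance. Between 50 and 100 kb from start sites the T-lineage transcription factor list had 13.8 sites per Mb and the T-cell receptor and signalling list 35.4, against 3.30 over all genes. Beyond 100 kb the first list had 11 sites, or 7.30 per Mb, against 0.992 over all genes. The neuronal list had 0 sites in 14.9 Mb between 50 and 100 kb and 3 sites in 17.0 Mb beyond, or 0.176 per Mb. The list of other cell types had 2 sites in 0.364 Mb between 50 and 100 kb, or 5.50 per Mb, and 0 sites in 0.341 Mb beyond, so its place among the lists rests on 2 sites and changed with distance.

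Gata3, which encodes a zinc finger factor needed throughout T-cell development, had 7 sites, the most of the listed T-lineage factors. Maf, which is not on that list, had 10. The Gata3 sites spread from 71.9 to 1119 kb from the Gata3 start site. The strongest, at chr2:9681681-9682040, had signals of 5.56 in mouse 1 and 3.70 in mouse 2 and held a GATA match. The next, at chr2:9493861-9494060, had 2.85 and 2.56. The remaining 5 were at most 1.88 in both mice. The medians of the 7 sites, 0.957 and 0.877, were close to that of all sites in mouse 1 (0.970) and below it in mouse 2 (1.28).

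Runx1, a RUNX factor gene of early thymocytes, had 5 sites on chromosome 16. The strongest, at chr16:93152881-93153380, lay 327 kb from its start site, had signals of 4.75 and 6.74 and held a RUNX match. Tox, a gene needed for CD4 T-cell development, also had 5 sites, 154 to 464 kb from its start site. The strongest of these, chr4:7455181-7455420, had 12.8 and 7.11 and held a TCF1/LEF1 match. The other 4 were at most 2.22 in mouse 1 and 1.59 in mouse 2. A single site thus stood above its neighbours near Tox.

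Runx3 had 4 sites within 86.1 kb of its start site, all higher in mouse 2. Their signals were 0.606 and 1.95 at chr4:135034501-135034680, 2.85 and 9.08 at the CTCF site shown above, 1.48 and 4.33 at chr4:135067221-135067398, and 7.96 and 16.9 at the site among the 10 strongest. Near Satb1, a chromatin organiser gene of thymocytes, the site with RUNX and ETS matches shown above was higher in mouse 1, with signals of 8.39 and 2.16. It lay 380 kb from the Satb1 start site. Myc had 2 sites, 470 and 471 kb away, with signals of 2.67 and 1.99 and of 1.64 and 1.37. In the 1833 kb between Vrk1 and Bcl11b, which also hold the gene 3110018I06Rik, lay 12 sites, 1 of them nearest to Bcl11b (1.26 and 1.58). The strongest of these 12 was the RUNX and ETS site near 3110018I06Rik printed above, with 5.02 in mouse 1, while the highest signal in mouse 2 was 3.93.

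In the receptor and signalling list, Ptprc, which encodes the phosphatase CD45, had 5 sites with signals of 0.619 to 2.71 in mouse 1 and 0.962 to 3.32 in mouse 2. Cxcr4, a chemokine receptor gene, had 4. The strongest, chr1:128832681-128832880, lay 240 kb from its start site and had 2.72 and 8.62. S1pr1, the receptor gene that controls exit from the thymus, had 4 sites, of which 1 held a CTCF match. Its strongest site, chr3:115642741-115642940, had 2.07 and 4.73. At both genes the strongest site was higher in mouse 2.

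In the list of other cell types, the Ebf1 site held a CTCF match and had signals of 0.823 and 3.22, and the Cdh5 site had 1.16 and 0.877. Of the 3 sites of the neuronal list, those nearest to Cdh12 (0.332 and 0.302) and Csmd3 (0.530 and 0.524) were below the median of all sites in both mice. The site nearest to Cdh20 had 2.11 and 7.14, and lay 2140 kb from the Cdh20 start site.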

How the data were processed

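DNase-seq was made from thymus of 2 mice, 1 library each. Per the labels the assembly was mm10, and a note deposited beside the files says that peaks and cut rates came from filtered alignments. The aligner, peak caller and footprint caller were not given in the sources used here. The authors deposited 2 peak lists per library, of which the shorter was used, with a signal per peak. That the signal is depth-normalised was inferred from its steps. The cut-rate lists hold p-values as an FDR that the authors deposited below 0.05, and touching runs were merged into regions. Of the footprint lists only positions were used. If 1 signal step is 1 read and the scale is RPM, the libraries held 157 M and 198 M reads.

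Peaks were classed by GENCODE M21 genes as promoter (within 1 kb of a start site), far intergenic, near intergenic (50 kb or less) or within gene bodies. A site joins overlapping far intergenic peaks, with the highest signal per mouse. Far intergenic sequence excludes assembly gaps. Motifs (17, both strands, 200 bp around the midpoint) were read from the GRCm38 patch p6 reference. No sequence of chromosome 18 is printed. Each motif was counted on its own, overlaps included. Work used Python 3.11.15, numpy 2.4.6, pandas 2.3.3 and scipy 1.17.1. On simulated data with 4000 peaks, 4000 were classed as by direct counting and 300 of 300 planted CTCF matches were found.

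Members and the 5 gene lists (169 genes) were chosen with earlier results of these data known. Named were the 10 strongest sites, the 10 stretches with most sites and the 3 genes of each list with most sites; Satb1, Myc, all Runx3 sites and the sites between Vrk1 and Bcl11b were added after their values were seen. The alternatives were other distances, the longer peak lists, the stronger 50% of peaks, 50% overlap, protein-coding genes only, other windows, and each mouse alone. 1 gene that was checked is left out here. No test was made, since a paired exact permutation test over 2 mice cannot give a two-sided p below 0.5.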

Additional observations from a re-analysis of the deposited data

How the results depend on the processing

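The number of sites followed the definition: 2496 at 25 kb from start sites, 165 at 100 kb, 1507 with the longer peak lists, 262 for the stronger 50% of peaks and 4289 when only protein-coding genes counted. The far intergenic share of peaks was then 5.56%, 0.393%, 3.45%, 1.13% and 9.60%. The share of mouse 1 members found in mouse 2 was 78.9% at 25 kb, 73.0% at 100 kb, 58.1% with the longer lists, 78.8% for the stronger 50% and 64.4% when an overlap of 50% of both peaks was required. In the other direction it was 63.7% at 25 kb, 33.6%, 66.8% and 51.2% under the last 3 of these. The median signal of the sites was 0.843 at 100 kb, 0.648 with the longer lists and 2.64 for the stronger 50%. The median log2 ratio of mouse 2 to mouse 1 was 0.14 at 100 kb and 0.17 with the longer lists, and stayed above 0 under the alternatives run for it. The CTCF share was 6.78% at 100 kb and 4.91% with the longer lists, and 8.09% and 8.91% with windows of 100 and 400 bp. The share with a footprint was 91.2% at 25 kb, 59.7% with the longer lists, 99.7% for the stronger 50% and 87.7% for footprints wholly inside the peak. The density beside T-lineage transcription factor genes was 18.2 sites per Mb at 25 kb, 7.30 at 100 kb, 17.9 with the longer lists and 6.29 for the stronger 50%, and its ratio to all far intergenic sequence lay between 4.41 and 8.91. Requiring 50% overlap left 718 sites. Each mouse alone gives the values printed per mouse. A median peak was worth 125 and 160 signal steps, which limits the precision of weaker sites; peaks carry no counts to give an interval.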

Other observations

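The density of far intergenic peaks varied between chromosomes. It was highest on chromosome 13, with 5.67 ± 1.25 peaks per Mb (SD, n = 2), and chromosome 9, with 5.03 ± 0.89, and lowest on chromosome 14, with 1.90 ± 0.41, and chromosome 11, with 1.99 ± 0.34.

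Stretches of far intergenic sequence without a site were about as frequent among long stretches as among all. Of 3523 stretches 87.9% had none, of 1246 stretches of at least 100 kb 1085 (87.1%), and of 62 stretches of at least 500 kb 56 (90.3%). The longest was 1156 kb on chromosome 1 between Dsel and Cntnap5a, followed by 1083 kb on chromosome 6 between Ankrd7 and Kcnd2, a potassium channel gene, and 1024 kb on chromosome 11 between Cobl and Pom121l12. None of these 3 held a site found in both mice.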
